A study of Arabidopsis thaliana with 6 samples.

Results

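The 6 RNA-seq libraries of the series came from rapamycin-treated Arabidopsis seedlings, and 2 of the 6 stood apart by the transcript of the clock gene PRR5 (AT5G24470). The 2 PRR5-high libraries, BP12-2 replicate 1 and WT replicate 3, were chosen by a measured value, PRR5 above 10 CPM (counts per 1000000 counts of the library). They were set against the other 4, the PRR5-low libraries, which were BP12-2 replicates 2 and 3 and WT replicates 1 and 2. PRR5 had 263 counts (25.5 CPM) in BP12-2 replicate 1 and 622 counts (38.0 CPM) in WT replicate 3. In the PRR5-low libraries it had 21 and 40 counts (3.13 and 2.34 CPM) in BP12-2 replicates 2 and 3, and 24 and 27 counts (3.15 and 1.99 CPM) in WT replicates 1 and 2. The lowest value above the limit was therefore 25.5 CPM and the highest below it 3.15 CPM.

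The series' design text calls BP12-2 a knockdown line for the kinase TOR, a central regulator of growth in response to nutrients, and WT is the Columbia ecotype. BP12 lines are known as plants that carry the yeast FKBP12 protein, through which rapamycin acts on TOR. Each genotype had 3 libraries, and every one of the 6 came from seedlings moved 15 days after germination from 0.5-strength MS medium to the same medium with rapamycin at 10 µg/ml for 3 days. Rapamycin, an inhibitor of TOR, was thus present in all libraries, and the BP12-2 seedlings were 1 line. The labels give neither a time of harvest nor whether the replicates were separate plantings, so no time of day can be assigned to a library. What follows describes the genes that differed between the PRR5-high and PRR5-low libraries within each genotype.

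The plant circadian clock is a network of transcription factors whose transcripts peak one after the other through the day. CCA1 and LHY, related MYB-like repressors, peak around dawn. The pseudo-response regulators PRR9, PRR7 and PRR5 follow in that order through the daylight hours, and TOC1, GI and the evening complex genes LUX, ELF3 and ELF4 peak towards dusk. CCA1 and LHY repress many afternoon and evening genes through the evening element, a short promoter motif, and the clock times outputs such as starch turnover, chlorophyll synthesis and cold tolerance.

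Library totals were 10322303 and 16371859 counts in BP12-2 replicate 1 and WT replicate 3, against 6706610 to 17092773 counts in the PRR5-low libraries, so depth overlapped between the states. CPM values below are scaled by TMM, a library-size correction whose factors were 0.972 to 1.02. Of 24224 genes with any count, 19436 passed a filter on low counts. A gene was called higher (or lower) when the PRR5-high library was at least 2-fold above (or below) the mean of the 2 PRR5-low libraries of its own genotype, on the log2 scale with a prior count of 2, in BP12-2 and in WT alike. Fitted values are log2 differences, PRR5-high minus PRR5-low, from an additive model with genotype as the other term. The fit left 3 residual degrees of freedom per gene. Values after ± are approximate SEs, the size of the difference divided by the square root of edgeR's F statistic. That statistic borrows spread across genes, so the SE is not a gene's own spread alone. Since the libraries were split by a measured value, no p-value is given for any gene: each genotype holds 1 PRR5-high library, and all differences are descriptions of these 6 libraries. The samples were whole seedlings, so fewer cells of a type and less RNA per cell cannot be told apart for any gene.

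The other clock genes only partly bore out a contrast of evening against morning. LHY had 23.2 CPM in BP12-2 replicate 1 and 27.04 CPM in WT replicate 3, against 193 and 179 CPM in BP12-2 replicates 2 and 3 and 172 and 139.6 CPM in WT replicates 1 and 2. The 2 PRR5-high libraries were thus far below the other 4, with a fitted log2 difference of -2.75 ± 0.15. CCA1 was lower by less, at 124 and 102 CPM in the PRR5-high libraries, against 154 to 241 CPM in the PRR5-low ones, and it remained abundant in every library. RVE8, a MYB-like activator related to both, had 8.98 and 9.64 CPM in the PRR5-high libraries, against 17.5 to 24.7 CPM in the PRR5-low ones, and its partners LNK2, LNK3 and LNK4 had fitted differences of -0.60 ± 0.09, -0.54 ± 0.09 and -0.58 ± 0.12.

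Among the pseudo-response regulators, PRR9 did not separate the libraries, with 43.3 and 49.2 CPM in the PRR5-high libraries and 42.6 to 52.7 CPM in the PRR5-low ones. PRR7 had 212 CPM in BP12-2 replicate 1 and 208 CPM in WT replicate 3, against 83.9 and 82.6 CPM in BP12-2 replicates 2 and 3 and 77.7 and 92.2 CPM in WT replicates 1 and 2, and the groups did not overlap. GI, which controls flowering and the stability of clock proteins, had 149 and 158 CPM in the PRR5-high libraries, against 62.3 to 74.8 CPM in the PRR5-low ones. TOC1 had 63.1 and 70.1 CPM in the PRR5-high libraries, against 33.2 to 36.7 CPM in the PRR5-low ones, short of 2-fold in both genotypes. Of the evening complex, ELF4 had 18.8 and 12.5 CPM in the PRR5-high libraries, against 2.45 to 6.05 CPM in the PRR5-low ones, LUX had 27.7 and 34.3 CPM in the PRR5-high libraries, against 13.8 to 16.7 CPM in the PRR5-low ones, and ELF3 had 86.3 and 79.7 CPM in the PRR5-high libraries, against 40.7 to 52.0 CPM in the PRR5-low ones. All 3 were above every PRR5-low library, and ELF4 alone of the 3 passed 2-fold in both genotypes.

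Of 27 core clock genes, 24 passed the filter, and FKF1, PRR3 and RVE3 did not and are given below with the genes left out. Of the 24, 4 were called higher (PRR7, PRR5, GI and ELF4) and 1 lower (LHY). Both PRR5-high libraries lay above all PRR5-low ones for 10 of the 24 and below for 7. Over all genes tested, 0.834% were called higher and 0.278% lower, and the shares above and below were 11.8% and 10.6%. PRR5 is in both the 4 and the 10 because it split the libraries. ZTL, the photoreceptor that degrades TOC1, and its relative LKP2 differed little, at 0.10 ± 0.09 and 0.17 ± 0.08. Because CCA1 was still at 102 CPM or more, PRR9 was level and PRR7 was high beside PRR5, the libraries are called by their PRR5 state here and not by a time of day.

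**Figure D1:**
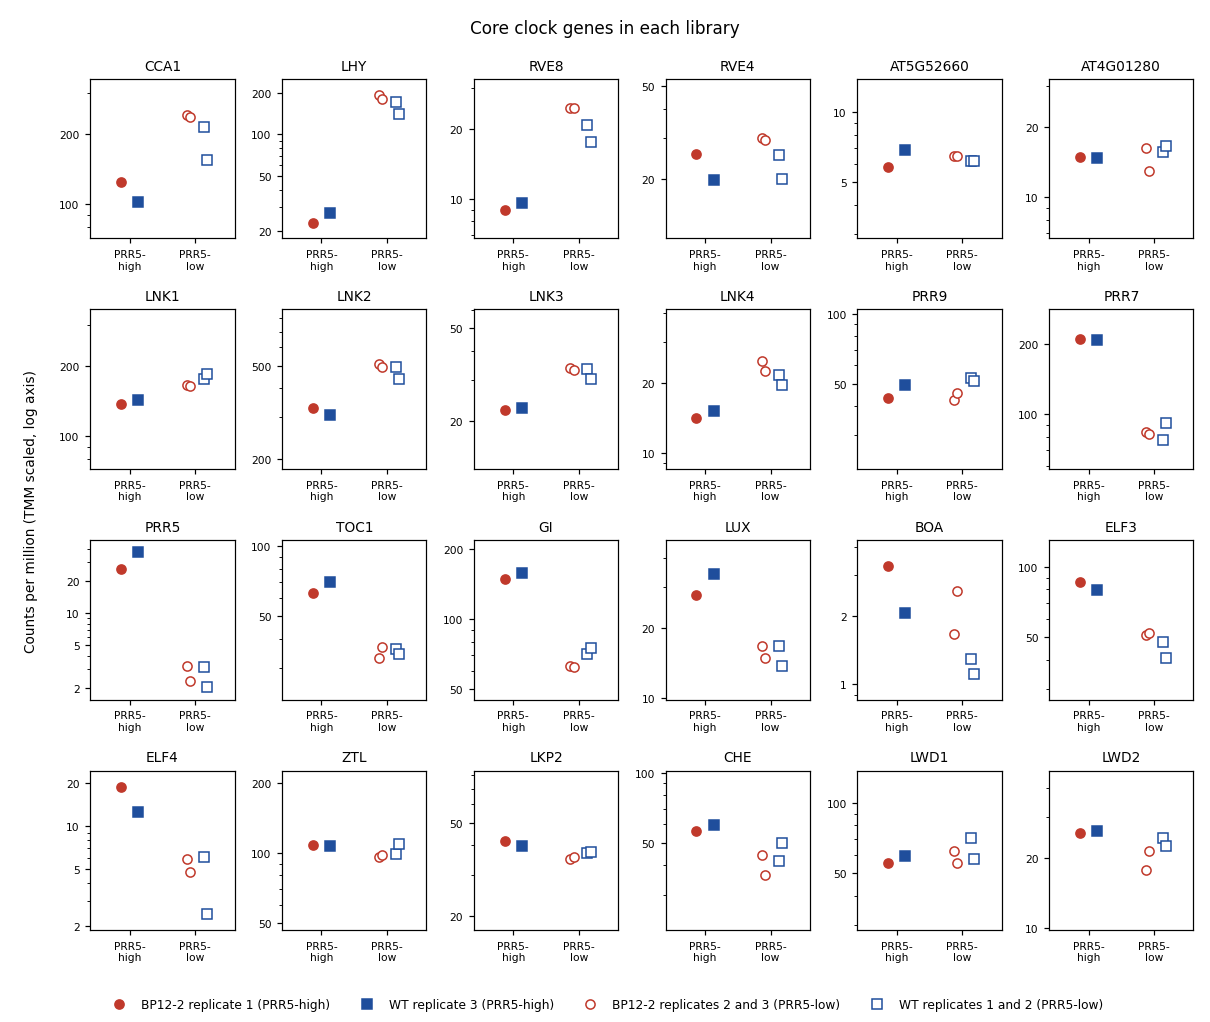
CPM (TMM scaled, log axis) of the 24 core clock genes that passed the filter, with the PRR5-high libraries at the left and the PRR5-low ones at the right of each panel; circles are BP12-2, squares WT, each point is 1 library. LHY sits at 23.2 and 27.04 CPM at the left, against 140 to 193 CPM at the right, and PRR9 is level.

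Across all genes tested, 162 (0.834%) were called higher and 54 (0.278%) lower in the PRR5-high libraries. Outside the core clock list that left 158 and 53. Without asking for a fold, both PRR5-high libraries lay above all 4 PRR5-low libraries for 2300 genes (11.8%) and below them for 2051 (10.6%). Of the called genes, 156 of 162 and 47 of 54 were also beyond all 4 PRR5-low libraries. This was partly built in, because a call already asks for 2-fold within each genotype. At 4-fold in both genotypes, 19 genes were higher and 4 lower.

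Taken alone, BP12-2 gave 452 genes (2.33%) at least 2-fold higher and 205 (1.05%) lower, and WT gave 315 (1.62%) higher and 226 (1.16%) lower. Past 2-fold in opposite directions were 10 genes (0.0515%). Across the 19436 genes the BP12-2 and the WT difference had a Pearson r of 0.473 and a Spearman rho of 0.389. This is a description over genes, which are not independent replicates; the 2 differences share no library. On the second principal component of log2 CPM, which held 28.6% of the variance, BP12-2 replicate 1 was at 41.6 and WT replicate 3 at 14.0, and the PRR5-low libraries were between -24.6 and 0.131.

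**Figure D2:**
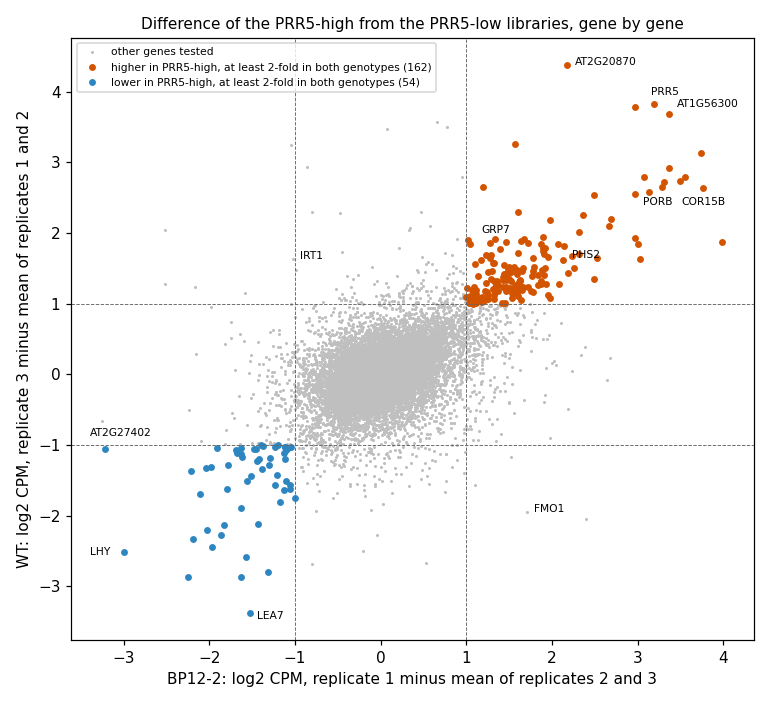
Log2 difference of the PRR5-high from the PRR5-low libraries in BP12-2 (x axis) and in WT (y axis), 1 point per gene tested; orange and blue mark the 162 genes called higher and the 54 called lower, and dashed lines the 2-fold limits. Most genes past 2-fold in both genotypes lie in the upper right and lower left corners, and 10 in the other 2.

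The filter needs counts in at least 3 libraries, so it can also remove genes that were expressed in little more than the 2 PRR5-high libraries. Of the 4788 genes it left out, 57 were past 2-fold higher in both genotypes and 16 lower. Of the 19436 that passed, 162 (0.834%) were higher and 54 (0.278%) lower. FKF1, a blue-light-sensing F-box protein that controls flowering by day length, had 117 and 297 counts (11.3 and 18.1 CPM of the total) in BP12-2 replicate 1 and WT replicate 3. It had 1 and 9 counts in BP12-2 replicates 2 and 3 and 3 and 8 counts in WT replicates 1 and 2. PRR3, a clock gene related to TOC1, had 25 and 46 counts in the PRR5-high libraries, against 13 counts summed over the PRR5-low ones. PORA, a light-dependent enzyme of chlorophyll synthesis, had 33 and 93 counts, against a sum of 16. DREB1A, a transcription factor of the cold response also known as CBF3, had 27 and 39 counts, against a sum of 17. These 4 were picked from the 57 after their values were seen. Among the 16 lower genes was RVE3 (ASG4), of the core clock list. RVE3 had 3 and 5 counts in the PRR5-high libraries, against 36 summed over the PRR5-low ones. None of the genes named here is in the counts of called genes above.

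Some markers of flowers and seeds were higher in the PRR5-high libraries, and others were not. Of 10 such genes, 9 did not pass the filter, and 3 of the 9, the floral homeotic genes AP1 and AP3 and the seed storage protein gene CRA1, were among the 57. AP3 had 8 and 21 counts in the PRR5-high libraries, against 10 summed over the PRR5-low ones, AP1 had 5 and 19, against a sum of 12, and CRA1 had 13 and 11, against a sum of 6. PI, the floral homeotic gene that passed, had 2.39 and 3.07 CPM in the PRR5-high libraries, against 1.11 to 1.80 CPM in the PRR5-low ones. Summed over the list, the level was 6.01 CPM of the total in BP12-2 replicate 1 and 6.96 in WT replicate 3, against 2.39 and 2.98 in BP12-2 replicates 2 and 3 and 2.50 and 2.21 in WT replicates 1 and 2, so the groups did not overlap. SEP3, another floral gene, had 5 and 11 counts in the PRR5-high libraries. Against these it had 2 and 9 in BP12-2 replicates 2 and 3 and 5 and 2 in WT replicates 1 and 2. SESA1 and SPL were at 0 in all libraries, and AG, CRU3 and OLEO1 had 6 counts or fewer in any. The floral genes SEP1, SEP2, SHP1 and CRC, picked from the 57 after their values were seen, had 41, 37, 16 and 10 counts summed over the PRR5-high libraries, against 23, 17, 7 and 0 over the PRR5-low ones. OLEO3, an oleosin, and XERO1, a dehydrin, were picked likewise from the 16 lower genes left out by the filter. They went the other way, with 4 and 6 counts summed over the PRR5-high libraries, against 26 and 36 over the PRR5-low ones. The part of flower or seed tissue in the other differences was not tested. Of 7 leaf markers 0 were called, with 4 negative and 2 positive in both genotypes, and their summed level was 46380 and 36340 CPM of the total in the PRR5-high libraries, against 36180 to 46860 in the PRR5-low ones. Of 12 root markers 0 were called, with 4 negative and 1 positive in both, at a summed 579.9 and 383.7 CPM of the total in the PRR5-high libraries, against 381.1 to 566.2 in the PRR5-low ones. Leaf and root sums thus showed no common direction.

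The genes with the largest positive differences outside the core clock, among called genes with a mean of at least 5 CPM, come first, 12 in all. PORB (chr4:13725546-13727440, plus strand), the protochlorophyllide oxidoreductase that carries out the light-driven step of chlorophyll synthesis, had 452 CPM in BP12-2 replicate 1 and 587 CPM in WT replicate 3, against 57.0 and 58.2 CPM in BP12-2 replicates 2 and 3 and 87.2 and 115 CPM in WT replicates 1 and 2. Both PRR5-high libraries were far above the other 4, with a fitted log2 difference of 2.76 ± 0.13. WCRKC1, a thioredoxin of the plastid, had 16.0 and 10.7 CPM in the PRR5-high libraries, against 0.873 to 1.65 CPM in the PRR5-low ones.

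A pair of J-domain co-chaperone genes stood among the 12. AT1G56300 (chr1:21078023-21080423, minus strand), annotated as a chaperone DnaJ-domain protein, had 24.1 CPM in BP12-2 replicate 1 and 23.9 CPM in WT replicate 3, against 2.11 and 2.27 CPM in BP12-2 replicates 2 and 3 and 1.55 and 1.86 CPM in WT replicates 1 and 2. The 2 genotypes agreed closely here, with log2 differences of 3.37 in BP12-2 and 3.69 in WT. AT5G23240, annotated with a DnaJ heat shock domain, had 38.3 and 34.9 CPM in the PRR5-high libraries, against 3.14 to 4.64 CPM in the PRR5-low ones.

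COR15B, a chloroplast protein made in the cold that protects membranes against freezing, had 16.1 CPM in BP12-2 replicate 1 and 9.09 CPM in WT replicate 3, against 0.602 and 1.69 CPM in BP12-2 replicates 2 and 3 and 1.80 and 0.966 CPM in WT replicates 1 and 2. Its neighbour and close relative COR15A had 41.4 and 31.8 CPM in the PRR5-high libraries, against 9.48 to 16.2 CPM in the PRR5-low ones. Reads from any sequence that both genes share may have been divided between them in counting. ABF1, a bZIP factor that binds abscisic acid-responsive promoters, had 34.4 and 34.3 CPM in the PRR5-high libraries, against 5.13 to 6.58 CPM in the PRR5-low ones with a fitted log2 difference of 2.54 ± 0.12.

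The gene with the largest fitted difference of the 12, AT2G20870, annotated as a cell wall protein precursor, differed in size between the genotypes. It had 4.39 CPM in BP12-2 replicate 1 and 32.9 CPM in WT replicate 3, against 0.752 and 0.931 CPM in BP12-2 replicates 2 and 3 and 1.80 and 1.11 CPM in WT replicates 1 and 2, and its fold was 4.54-fold in BP12-2 and 20.8-fold in WT. AT5G62360, annotated as a plant invertase and pectin methylesterase inhibitor family protein, had 16.5 and 10.4 CPM in the PRR5-high libraries, against 0.903 to 1.28 CPM in the PRR5-low ones. MEE14 (chr2:6920369-6922161, minus strand) and its neighbour AT2G15880 (chr2:6917514-6920319, minus strand), annotated as a leucine-rich repeat protein, lie on the same strand and had fitted differences of 2.92 ± 0.27 and 2.87 ± 0.27. MEE14 had 127 and 84.9 CPM in the PRR5-high libraries, against 7.43 to 19.4 CPM in the PRR5-low ones. The last 2 of the 12 were AT3G62550 (adenine nucleotide alpha hydrolases-like) and AT1G11210 (annotated as a putative cotton fiber protein with a domain of unknown function). Their fitted differences were 3.24 ± 0.24 and 2.99 ± 0.26.

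Both GRP7 and CCL, known outputs of the clock, were called higher. GRP7, an RNA-binding protein that the clock drives and that controls its own splicing, had 416 CPM in BP12-2 replicate 1 and 391 CPM in WT replicate 3, against 131 and 129.6 CPM in BP12-2 replicates 2 and 3 and 144 and 74.7 CPM in WT replicates 1 and 2, a fitted log2 difference of 1.76 ± 0.21. Its paralog GRP8 had 321 and 268 CPM in the PRR5-high libraries, against 143 to 175 CPM in the PRR5-low ones, short of 2-fold in both. The list of other REVEILLE factors and clock-driven RNA-binding proteins had 1 of 9 tested genes called higher and 0 lower; RVE1 and RVE2, MYB-like factors related to CCA1, had fitted differences of -0.96 ± 0.35 and -0.97 ± 0.36. CCL, a CCR-like gene whose transcript is under clock control, had 454 and 302 CPM in the PRR5-high libraries, against 67.9 to 75.4 CPM in the PRR5-low ones.

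**Figure D3:**
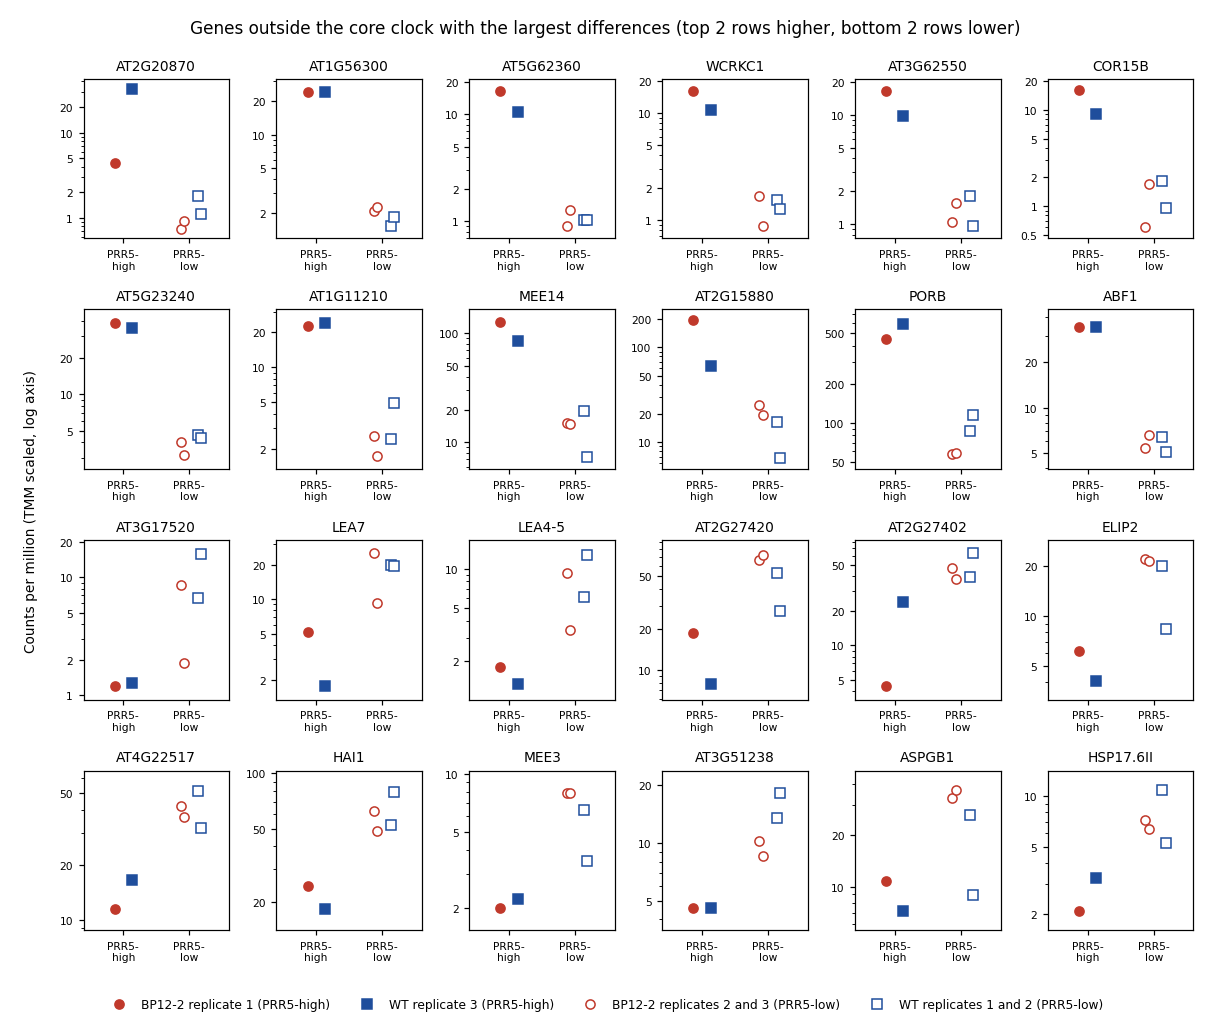
CPM (TMM scaled, log axis) in each library of the 12 genes with the largest positive (upper 2 rows) and the 12 with the largest negative differences (lower 2 rows) outside the core clock; the PRR5-high libraries are at the left of each panel. PORB sits at 452 and 587 CPM at the left, against 57.0 to 115 CPM at the right, and ASPGB1 is the 1 gene of the 24 whose libraries overlap.

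The 300 bases upstream of each annotated gene start were searched on both strands for 7 short motifs of light, clock, cold and abscisic acid responses. The evening element, AAAATATCT, was found upstream of 26 of the 162 genes called higher (16.0%), 0 of the 54 called lower and 575 of 19403 tested genes with a window (2.96%). Outside the core clock it was in 25 of 158 (15.8%). Among the 57 higher genes that the filter left out, which include the core clock genes FKF1 and PRR3, it was in 10 (17.5%). In 20 of the 26 (76.9%) a match began within 100 bases of the gene start, against 203 of the 575 (35.3%). The related CCA1-binding site AAAAATCT was in 4.94% of the genes called higher, 7.41% of those called lower and 7.98% of all.

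Windows of 5 genes called higher are shown because they carry the motif next to large differences; capitals mark the evening element or its reverse complement AGATATTTT, and sequences are from RefSeq TAIR10.1, 5′ to 3′ along the gene's strand.
PRR5 (chr5:8358547-8358846, minus strand): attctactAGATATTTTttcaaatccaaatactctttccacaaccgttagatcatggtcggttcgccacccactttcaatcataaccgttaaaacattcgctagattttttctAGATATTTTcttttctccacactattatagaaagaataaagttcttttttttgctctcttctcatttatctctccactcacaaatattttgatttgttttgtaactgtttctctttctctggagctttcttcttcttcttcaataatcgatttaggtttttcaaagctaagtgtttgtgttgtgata
PORB (chr4:13725246-13725545, plus strand): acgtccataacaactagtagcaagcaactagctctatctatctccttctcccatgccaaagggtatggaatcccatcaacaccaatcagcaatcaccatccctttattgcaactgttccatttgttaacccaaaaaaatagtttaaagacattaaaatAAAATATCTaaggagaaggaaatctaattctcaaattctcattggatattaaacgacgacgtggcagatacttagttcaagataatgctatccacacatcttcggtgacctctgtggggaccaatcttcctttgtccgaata
MEE14 (chr2:6922162-6922461, minus strand): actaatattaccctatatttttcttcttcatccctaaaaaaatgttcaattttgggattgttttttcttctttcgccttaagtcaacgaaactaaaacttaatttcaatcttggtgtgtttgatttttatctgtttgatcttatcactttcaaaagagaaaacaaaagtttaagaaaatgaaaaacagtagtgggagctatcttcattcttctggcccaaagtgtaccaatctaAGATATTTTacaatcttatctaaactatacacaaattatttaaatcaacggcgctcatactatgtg
GRP7 (chr2:9266558-9266857, minus strand): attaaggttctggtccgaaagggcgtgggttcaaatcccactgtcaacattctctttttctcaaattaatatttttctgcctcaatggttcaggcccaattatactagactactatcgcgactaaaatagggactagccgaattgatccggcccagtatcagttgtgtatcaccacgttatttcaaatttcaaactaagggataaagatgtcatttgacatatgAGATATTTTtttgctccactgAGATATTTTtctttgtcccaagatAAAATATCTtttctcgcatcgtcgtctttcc
AT5G62360 (chr5:25040240-25040539, plus strand): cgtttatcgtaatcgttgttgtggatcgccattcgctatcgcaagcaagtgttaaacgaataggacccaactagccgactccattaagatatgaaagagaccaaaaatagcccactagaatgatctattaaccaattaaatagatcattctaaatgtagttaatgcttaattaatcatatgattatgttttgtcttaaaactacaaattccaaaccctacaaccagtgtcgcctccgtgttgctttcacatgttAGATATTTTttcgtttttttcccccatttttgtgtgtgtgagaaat

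GRP7 held 3 matches, the nearest 31 bases upstream of the start. PRR5 held 2, at 292 and 187 bases, MEE14 had 1 at 66 bases, AT5G62360 had 1 at 46 bases and PORB had 1 at 142 bases. FKF1 also held 1, at 186 bases. Other called genes with a match included CCL, PDC2, PWD and PEN3, with fitted differences of 2.39 ± 0.13, 1.81 ± 0.10, 1.48 ± 0.10 and 1.23 ± 0.09. A match is a sequence feature and no evidence of binding.

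Some other motifs were more frequent among the genes called lower, but not confined to them. Abscisic acid-responsive elements (ABREs), searched as ACGTGTC and ACGTGGC, were upstream of 15 of the 54 genes called lower (27.8%), 17 of the 162 called higher (10.5%) and 7.89% of all. The 15 include LHY, of the core clock list. The first form alone was in 20.4% of the genes called lower and 4.59% of all. The G-box CACGTG, which can overlap both forms, was in 22.2% of the genes called lower, 13.0% of those called higher and 8.02% of all. The C-repeat core CCGAC of cold-responsive promoters differed little, at 18.5% of lower, 16.0% of higher and 14.9% of all genes. The I-box GATAAG of light-responsive promoters was in 21.6% of the genes called higher, 7.41% of those called lower and 14.5% of all.

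Windows of 2 genes called lower are shown as examples of ABREs, with both forms or their reverse complements in capitals, from RefSeq TAIR10.1.
LEA7 (chr1:19619424-19619723, plus strand): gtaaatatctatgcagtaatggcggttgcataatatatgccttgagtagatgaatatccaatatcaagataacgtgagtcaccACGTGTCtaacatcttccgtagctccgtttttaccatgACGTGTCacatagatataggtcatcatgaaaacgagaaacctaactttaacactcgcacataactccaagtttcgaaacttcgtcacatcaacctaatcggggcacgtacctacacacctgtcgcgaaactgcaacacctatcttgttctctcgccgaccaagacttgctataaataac
LEA4-5 (chr5:2090431-2090730, minus strand): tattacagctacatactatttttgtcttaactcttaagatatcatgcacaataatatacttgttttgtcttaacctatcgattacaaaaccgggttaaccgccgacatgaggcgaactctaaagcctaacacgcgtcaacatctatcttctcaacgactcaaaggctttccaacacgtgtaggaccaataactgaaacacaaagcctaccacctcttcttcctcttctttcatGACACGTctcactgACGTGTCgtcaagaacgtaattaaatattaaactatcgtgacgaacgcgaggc

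**Figure D4:**
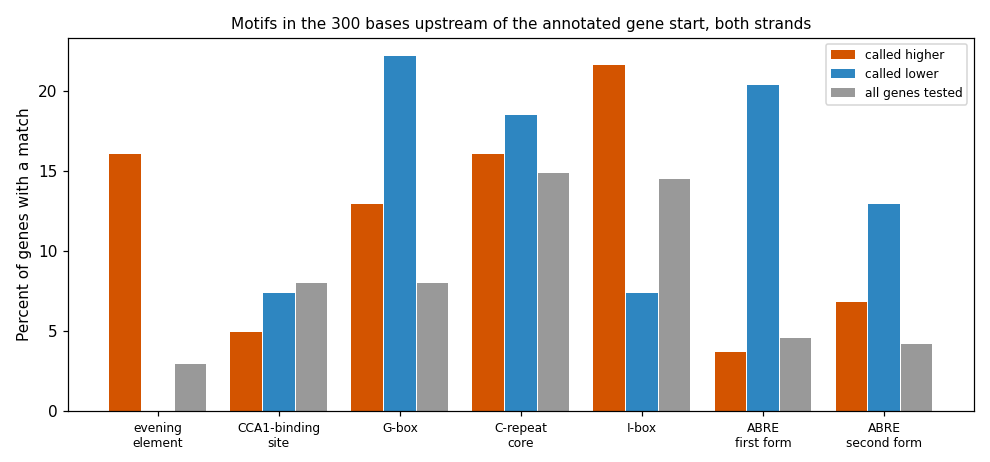
Percent of genes (y axis) with at least 1 match of each motif in the 300 bases upstream of the annotated start, for the genes called higher, those called lower and all genes tested; the 2 ABRE forms are counted apart. The evening element stands at 16.0%, 0% and 2.96%, and the first ABRE form at 3.70%, 20.4% and 4.59%.

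Late embryogenesis abundant (LEA) proteins, which protect cells in drying, had the 3 largest negative differences among called genes outside the core clock with a mean of at least 5 CPM. LEA7 (chr1:19619724-19621534, plus strand) had 5.19 CPM in BP12-2 replicate 1 and 1.75 CPM in WT replicate 3, against 25.1 and 9.25 CPM in BP12-2 replicates 2 and 3 and 19.8 and 19.5 CPM in WT replicates 1 and 2. LEA4-5 had 1.80 and 1.33 CPM in the PRR5-high libraries, against 3.43 to 12.6 CPM in the PRR5-low ones, and AT3G17520, annotated as another LEA protein, had 1.198 and 1.26 CPM in the PRR5-high libraries, against 1.86 to 15.8 CPM in the PRR5-low ones. In all 3, both PRR5-high libraries were below the other 4, but BP12-2 replicate 3 was the nearest of those and the spread among the PRR5-low libraries was wide, with SEs of 0.52 to 0.74 for the fitted differences.

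HAI1, a protein phosphatase that represses abscisic acid signalling and is itself induced by it, had 24.3 CPM in BP12-2 replicate 1 and 18.25 CPM in WT replicate 3, against 62.3 and 48.5 CPM in BP12-2 replicates 2 and 3 and 52.4 and 79.3 CPM in WT replicates 1 and 2. ELIP2, an early light-induced protein that binds chlorophyll under strong light, had 6.19 and 4.096 CPM in the PRR5-high libraries, against 8.32 to 22.1 CPM in the PRR5-low ones, and its relative ELIP1 had 31.5 and 19.2 CPM in the PRR5-high libraries, against 60.9 to 67.9 CPM in the PRR5-low ones. HSP17.6II, a small heat shock protein, had 2.095 and 3.25 CPM in the PRR5-high libraries, against 5.28 to 10.8 CPM in the PRR5-low ones. AT2G27420, annotated as a cysteine proteinase, had 18.8 and 7.77 CPM in the PRR5-high libraries, against 27.6 to 71.6 CPM in the PRR5-low ones, and AT2G27402, annotated as a plastid transcriptionally active protein, had log2 differences of -3.21 in BP12-2 and -1.05 in WT.

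The remaining 4 of the 12 were AT4G22517 (annotated with a lipid-transfer protein domain), MEE3 (homeodomain-like), AT3G51238 (annotated as other RNA) and ASPGB1 (an asparaginase). Their fitted differences were -1.52 ± 0.21, -1.50 ± 0.32, -1.46 ± 0.23 and -1.46 ± 0.38. ASPGB1 had 10.8 and 7.23 CPM in the PRR5-high libraries, against 8.92 to 36.9 CPM in the PRR5-low ones, so its groups overlapped through WT replicate 2. AT3G51238 overlaps F3H, a gene of flavonoid synthesis, by 1588 bases on the opposite strand, and LEA7, AT4G22517, AT1G56300, COR15B, PORB and ABF1 also overlap a neighbour by 71 to 775 bases on the other strand. Other genes described here that overlap an opposite-strand neighbour by more than 300 bases are LUX (1507), FER1 (1334), COL2 (771 and 688), EBF2 (533), HSFA3 (486), NPQ1 (464), bHLH38 (386) and LKP2 (370). With strand use in counting not stated, reads of such pairs cannot be told apart.

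Genes of starch breakdown differed in both directions. Leaves store starch in the light and break it down at night, starting with glucan phosphorylation by SEX1 and PWD. Of 19 tested genes, 5 were called higher and 1 lower, with a median fitted difference of 0.68, against -0.01 over all genes; 13 were positive in both genotypes and 5 negative. SEX1, the glucan, water dikinase, had 99.1 CPM in BP12-2 replicate 1 and 83.3 CPM in WT replicate 3, against 23.9 and 29.6 CPM in BP12-2 replicates 2 and 3 and 24.1 and 36.7 CPM in WT replicates 1 and 2. PWD, which phosphorylates glucan already marked by SEX1, had 133 and 151 CPM in the PRR5-high libraries, against 41.8 to 63.3 CPM in the PRR5-low ones.

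PHS2, the cytosolic glucan phosphorylase, had the largest difference of the list, at 71.9 and 97.4 CPM in the PRR5-high libraries, against 15.8 to 32.6 CPM in the PRR5-low ones. DPE1, which rearranges maltotriose in the plastid, and AMY3, the plastid alpha-amylase, had fitted differences of 1.45 ± 0.15 and 1.25 ± 0.12. PHS1 and DPE2 were close to 2-fold, at 0.99 ± 0.19 and 1.02 ± 0.17. The 5 members that were negative in both genotypes were all beta-amylase genes, a grouping seen after the values: BMY3 (BAM9) had 84.3 and 113 CPM in the PRR5-high libraries, against 153 to 313 CPM in the PRR5-low ones, and BAM2, BAM1, BAM3 and BAM5 had fitted differences of -0.82 ± 0.11, -0.55 ± 0.14, -0.52 ± 0.15 and -0.49 ± 0.56. BAM4, the remaining beta-amylase of the list, was at 0.47 ± 0.14. In starch synthesis, 1 of 16 genes was called higher and 0 lower: SS4, which starts new granules, had 81.1 and 72.2 CPM in the PRR5-high libraries, against 28.7 to 32.2 CPM in the PRR5-low ones.

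Genes of light harvesting and carbon fixation differed little in size and leaned opposite ways. None of 39 photosystem and light-harvesting genes was called in either direction, yet 30 were positive in both genotypes and 5 negative, with a median of 0.21 (0.30 in BP12-2 and 0.12 in WT), and 0.12 without BP12-2 replicate 1. CAB1, a chlorophyll a/b-binding protein, had 18258 and 14999 CPM in the PRR5-high libraries, against 11627 to 13176 CPM in the PRR5-low ones. Over all genes, 6178 of 19436 were positive in both genotypes and 6203 negative. Of 19 Calvin cycle genes, 0 were called, 3 were positive in both and 13 negative, with a median of -0.18, or -0.31 without WT replicate 2. The Rubisco small subunit gene RBCS1A had 6519.9 and 5518 CPM in the PRR5-high libraries, against 6225 to 9726 CPM in the PRR5-low ones, so its groups overlapped. Members of these families share long stretches of sequence, and their split of reads is uncertain.

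In tetrapyrrole and chlorophyll synthesis, PORB was the 1 of 27 genes called higher and 0 were lower; the list's median was 0.05. HEMC, an early enzyme of the pathway, had a fitted difference of 0.55 ± 0.10, and GUN5, the magnesium chelatase subunit, one of -0.36 ± 0.12. The 2 leading catalases went apart: CAT3 had 3095 and 3251 CPM in the PRR5-high libraries, against 1129 to 2159 CPM in the PRR5-low ones, and CAT2, the main leaf catalase of photorespiration, had 1429.5 and 1051 CPM in the PRR5-high libraries, against 1668 to 2076 CPM in the PRR5-low ones. CAT3 was the 1 of 16 redox genes called higher, with 0 lower.

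Most listed heat shock genes had negative differences, few of them past 2-fold. Of 20 tested, 17 were negative in both genotypes and 2 positive, both PRR5-high libraries lay below all others for 15 (all genes: 10.6%), and the median was -0.56 (-0.44 in BP12-2 and -0.70 in WT). Of these 20, only 2 were called lower, HSP17.6II and HSP21, and HSP21 was near 0 in every library, at 1.51 CPM or less. HSP70 had 363 CPM in BP12-2 replicate 1 and 371 CPM in WT replicate 3, against 796 and 588 CPM in BP12-2 replicates 2 and 3 and 966 and 884 CPM in WT replicates 1 and 2, and HSP101, which dissolves protein aggregates, had 44.5 and 37.0 CPM in the PRR5-high libraries, against 61.3 to 89.8 CPM in the PRR5-low ones. DREB2A, a transcription factor of heat and drought, and HSFA3, which it activates, were the 2 positive ones, at 0.74 ± 0.16 and 0.73 ± 0.26. The co-chaperones AT1G56300 and AT5G23240 are not in this list. Also outside it were ATHSP22.0, called lower at -2.55, and the heat shock factor HSFA8, called higher at 1.54 ± 0.14. The list's entry HSP22.0 found no match by name and was left out.

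Phenylpropanoid and flavonoid genes had a median of -0.63 (-0.37 in BP12-2 and -0.65 in WT), with 19 of 26 negative in both genotypes. 4CL3, a ligase that feeds flavonoid synthesis, was the 1 called lower, with 0 higher, at 13.2 and 9.40 CPM in the PRR5-high libraries, against 24.2 to 32.7 CPM in the PRR5-low ones. TT4, chalcone synthase, had 577 CPM in BP12-2 replicate 1 and 402 CPM in WT replicate 3, against 832 and 863 CPM in BP12-2 replicates 2 and 3 and 1269.9 and 1442 CPM in WT replicates 1 and 2. The anthocyanin genes DFR and LDOX were at 144 and 239 CPM in WT replicate 2 and at most 31.7 and 67.0 CPM in the other libraries, so their groups overlapped. Without WT replicate 3 the list's median was -0.34. MYBL2, a repressor of the pathway, went the other way, at 94.6 and 69.3 CPM in the PRR5-high libraries, against 29.2 to 53.7 CPM in the PRR5-low ones.

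Aquaporin genes, whose proteins carry water across membranes, had a median of -0.31; 14 of 19 were negative in both genotypes and 0 positive. RD28 (PIP2;3) was the 1 called lower, with 0 higher, at 49.1 and 35.7 CPM in the PRR5-high libraries, against 84.7 to 127 CPM in the PRR5-low ones, and TIP1;1 had 549.5 and 534 CPM in the PRR5-high libraries, against 787 to 1046 CPM in the PRR5-low ones. Of 22 cytosolic ribosomal protein genes, 0 were called and 19 were negative in both genotypes, but the sizes differed: the median was -0.51 in BP12-2 and -0.06 in WT. The cell cycle list behaved likewise, with 0 of 27 called and medians of -0.36 in BP12-2 and -0.05 in WT, as did ribosome biogenesis, with 0 of 26 called and medians of -0.24 and 0.04. TSO2, a ribonucleotide reductase subunit needed for DNA replication, had 87.4 and 118 CPM in the PRR5-high libraries, against 103 to 131 CPM in the PRR5-low ones. Whether the genotypes differ in these medians was not tested.

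The cold and abscisic acid-induced protective proteins did not differ as 1 group. COR15A and COR15B were called higher and KIN1 lower among 19 tested, with a median of 0.01. KIN1 had at most 2.86 CPM in any library. RD29B, a classical abscisic acid-induced gene, had 4.99 and 4.28 CPM in the PRR5-high libraries, against 5.88 to 24.6 CPM in the PRR5-low ones, while COR47, a dehydrin, had 492 and 322 CPM in the PRR5-high libraries, against 263 to 529 CPM in the PRR5-low ones and overlapped. Of 34 abscisic acid genes, ABF1 was called higher, HAI1 and HAI3 lower, and the median was -0.07. SNRK2.2, a kinase that activates ABF factors, had 67.8 and 65.9 CPM in the PRR5-high libraries, against 32.9 to 36.0 CPM in the PRR5-low ones, and the related bZIP gene ABF3 had 104 and 79.9 CPM in the PRR5-high libraries, against 153 to 175 CPM in the PRR5-low ones.

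**Figure D5:**
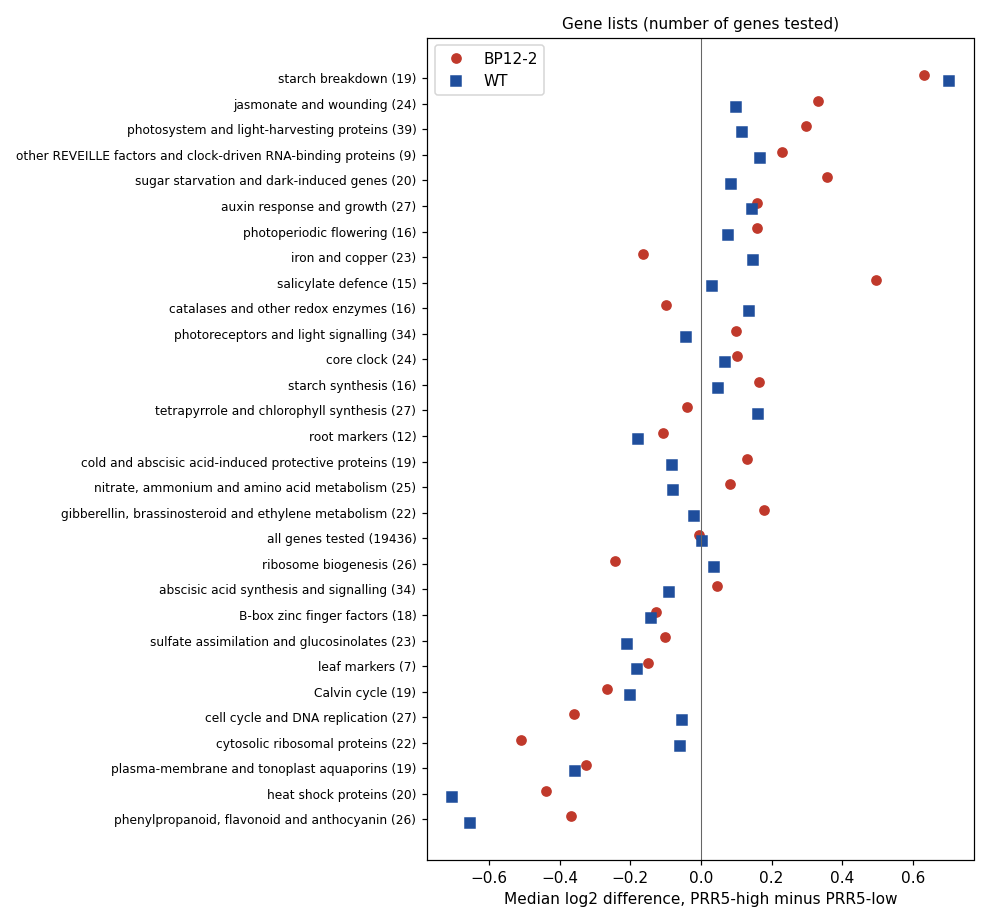
Median log2 difference of each gene list, PRR5-high minus PRR5-low, in BP12-2 (circles) and WT (squares), with the number of genes tested in parentheses. Starch breakdown stands at 0.63 and 0.70, phenylpropanoid genes at -0.37 and -0.65, heat shock genes at -0.44 and -0.70, and all genes tested near 0.

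Jasmonate and wounding genes had a median of 0.22 (0.06 without BP12-2 replicate 1), with 16 of 24 positive in both genotypes, 2 called higher and 1 lower. AOC2, an enzyme of jasmonate synthesis, had 250.2 and 207 CPM in the PRR5-high libraries, against 56.9 to 141 CPM in the PRR5-low ones, and VSP1, a vegetative storage protein induced by jasmonate, had 369.9 and 265 CPM in the PRR5-high libraries, against 76.9 to 147 CPM in the PRR5-low ones. JMT, which methylates jasmonate, was the 1 called lower, at 1.297 and 1.45 CPM in the PRR5-high libraries, against 3.01 to 5.30 CPM in the PRR5-low ones. Among 15 salicylate defence genes and 27 auxin genes 0 were called, and their medians were 0.09 and 0.11. With each library left out in turn these ran from -0.06 (without BP12-2 replicate 2) to 0.45 (without WT replicate 3) for salicylate and from 0.07 (without WT replicate 2) to 0.23 (without WT replicate 1) for auxin. Gibberellin, brassinosteroid and ethylene genes had 0 of 22 called and a median of -0.01. EBF2, an F-box protein that removes the ethylene factor EIN3, had 319 and 386 CPM in the PRR5-high libraries, against 270.1 to 390.4 CPM in the PRR5-low ones.

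Of 23 iron and copper genes, BHLH101, a factor of the iron deficiency response, was called higher and FER1, a ferritin that stores iron, lower. FER1 had 0.998 and 0.903 CPM in the PRR5-high libraries, against 1.93 to 5.24 CPM in the PRR5-low ones. AT5G01595, annotated as other RNA, overlaps FER1 by 1334 bases on the opposite strand and was itself called lower, at -1.14 ± 0.22, and reads of the pair cannot be told apart. BHLH101 had 3.59 CPM in BP12-2 replicate 1 and 7.17 CPM in WT replicate 3, against 1.96 and 1.11 CPM in BP12-2 replicates 2 and 3 and 0.902 and 1.11 CPM in WT replicates 1 and 2. Its relatives bHLH38 and BHLH100 had 43.8 and 53.5 CPM in WT replicate 3, against 2.70 to 5.28 and 1.80 to 10.2 CPM in WT replicates 1 and 2. In BP12-2 replicate 1 they were at 5.89 and 6.89 CPM, against 4.36 to 7.07 and 3.61 to 5.12 CPM in BP12-2 replicates 2 and 3. The 2 genotypes therefore did not agree, and the difference between them was not tested.

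Light-signalling and flowering genes held few calls. Of 18 B-box factors, LZF1, which promotes greening and responses to light, was called higher, with 0 lower, at 77.2 and 88.0 CPM in the PRR5-high libraries, against 26.8 to 36.3 CPM in the PRR5-low ones; BBX32 was at 7.48 and 8.85 CPM in the PRR5-high libraries, against 17.2 to 26.9 CPM in the PRR5-low ones. Of 34 photoreceptor and light-signalling genes, ELIP2 was the 1 called lower, with 0 higher, and PIF4, a growth-promoting factor that phytochromes destroy, had 70.3 and 52.9 CPM in the PRR5-high libraries, against 32.9 to 42.1 CPM in the PRR5-low ones. In photoperiodic flowering 0 of 16 were called; CO had 0.898 and 1.39 CPM in the PRR5-high libraries, against 1.34 to 1.80 CPM in the PRR5-low ones, COL2 had 80.9 and 69.6 CPM in the PRR5-high libraries, against 108 to 154 CPM in the PRR5-low ones, and CDF3, a repressor of CO, had 145 and 136 CPM in the PRR5-high libraries, against 123 to 131 CPM in the PRR5-low ones. Among 20 sugar starvation and dark-induced genes, DIN11 was called higher, with 0 lower, but it had no more than 3.19 CPM, and ASN1, an asparagine synthetase induced in the dark, had 169.5 and 121 CPM in the PRR5-high libraries, against 41.6 to 96.6 CPM in the PRR5-low ones. Nitrogen genes had 0 of 25 called and sulfur and glucosinolate genes 0 of 23, with medians of 0.0015 and -0.16.

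Called genes outside the lists and the 24 shown above, chosen after their values were seen, included PDC2, a pyruvate decarboxylase of fermentation, at 228 and 275 CPM in the PRR5-high libraries, against 58.3 to 93.9 CPM in the PRR5-low ones. PEN3, a transporter of defence compounds at the plasma membrane, had 891 and 1188 CPM in the PRR5-high libraries, against 336 to 556 CPM in the PRR5-low ones. ADS2, a fatty acid desaturase, had 58.1 and 82.9 CPM in the PRR5-high libraries, against 27.4 to 38.2 CPM in the PRR5-low ones, and NPQ1, violaxanthin de-epoxidase of photoprotection, had 93.3 and 63.1 CPM in the PRR5-high libraries, against 28.4 to 46.2 CPM in the PRR5-low ones. Lower ones included AO, an aspartate oxidase that starts NAD synthesis, at 14.6 and 19.4 CPM in the PRR5-high libraries, against 31.4 to 48.4 CPM in the PRR5-low ones, and ERD9, annotated as a glutathione S-transferase, at 58.0 and 37.7 CPM in the PRR5-high libraries, against 109 to 130.3 CPM in the PRR5-low ones.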

How the data were processed

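Per the series' design text and the submitters' processing notes, reads were aligned with Bowtie to TAIR9 and counted per gene with HTSeq, and edgeR was used for differential expression. Tool versions and whether counting used strand: not given in the sources used here. Deposited by the authors were whole-number counts, not normalized, for 32313 gene codes in 6 libraries, with totals of 6706610 to 17092773, which sets the precision of low genes. Names, upstream sequence and coordinates came from RefSeq TAIR10.1, matched by gene code for 31786; it is not the authors' build, and nothing was converted.

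From the counts, edgeR 4.0.16 in R 4.3.3 gave filterByExpr (count minimum 10, total minimum 15, genotype as group), TMM factors, CPM, log2 CPM with a prior count of 2, and a quasi-likelihood fit with genotype and PRR5 state as terms, all run on the 19436 genes kept. Calls ask for 2-fold in both genotypes. The steps were checked on simulated counts. The smallest chi-square per degree of freedom between 2 libraries was 10.9, so none was a repeat. The labels do not say whether replicates came from separate plantings.

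The members and the 30 gene lists (22 of 697 entries had no single match and were left out) were chosen with earlier results of these data known. Named genes were the core clock genes, the 12 largest differences in each direction outside it among called genes averaging 5 CPM or more, and per list up to 4 called members or, with none, the 2 of highest mean; others are described as examples of their list or marked as picked after seeing values. Alternatives were other scalings, filters, prior counts and folds, each library left out, a replicate block and DESeq2 1.42.0.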

Additional observations from a re-analysis of the deposited data

Results flagged for a closer look

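For 9 genes the PRR5-high library of each genotype lay beyond both PRR5-low libraries of its own genotype, at least 2-fold and in opposite directions. With 1 PRR5-high library per genotype the difference between the genotypes was not tested. Values are log2 differences in BP12-2 minus those in WT. Higher in BP12-2 and lower in WT were ADPG1, annotated as a pectin lyase-like protein, at 4.44, FMO1, a flavin-dependent monooxygenase of systemic resistance, at 3.66, the natriuretic peptide gene PNP-A at 2.68, and AT4G04223, annotated as other RNA, at 2.67. ADPG1 had 1.70 CPM in BP12-2 replicate 1, against 0 and 0.582 CPM in BP12-2 replicates 2 and 3. It had 1.14 CPM in WT replicate 3, against 18.4 and 1.41 CPM in WT replicates 1 and 2. Its WT difference thus rests mainly on WT replicate 1, and its BP12-2 values are low. FMO1 had 5.29 CPM in BP12-2 replicate 1, against 2.26 and 0.989 CPM in BP12-2 replicates 2 and 3. In WT it had 1.99 CPM in replicate 3, against 6.83 and 9.81 CPM in replicates 1 and 2.

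Lower in BP12-2 and higher in WT were AT1G15405, annotated as other RNA, at -4.56, AT5G28145, annotated as an uncharacterized protein, at -4.30, AT2G01020, annotated as ribosomal RNA, at -3.79, AT4G07820, annotated as a cysteine-rich secretory protein, at -2.75, and IRT1, the iron transporter of the root surface, at -2.65. AT2G01020 had 13.4 CPM in BP12-2 replicate 1, against 407 and 14.7 CPM in BP12-2 replicates 2 and 3, and 112 CPM in WT replicate 3, against 26.1 and 81.8 CPM in WT replicates 1 and 2. IRT1 had 12.8 CPM in BP12-2 replicate 1, against 36.4 and 18.8 CPM in BP12-2 replicates 2 and 3, and 20.4 CPM in WT replicate 3, against 20.2 and 2.01 CPM in WT replicates 1 and 2. AT1G15405 had 5.69 CPM in BP12-2 replicate 1, against 122 and 9.02 CPM in BP12-2 replicates 2 and 3. In WT it had 105 CPM in replicate 3, against 9.27 and 68.6 CPM in replicates 1 and 2. The BP12-2 differences of AT1G15405 and AT2G01020 thus rest mainly on BP12-2 replicate 2. The WT difference of IRT1 rests on WT replicate 2.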

How the results depend on the processing

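The split itself was the same 2 libraries when PRR5 was scaled by TMM. Under RLE, upper-quartile or total scaling the counts of genes called higher and lower stayed within 161 to 163 and at 53. Without a filter on low counts, 31 genes were past the fold in opposite directions; with a mean of at least 5 CPM, 26 were lower and 4 opposite. At 1.5-fold, 562 genes were higher, 259 lower and 99 opposite; at 4-fold, 19, 4 and 2. Leaving out each library in turn gave 186 to 458 genes higher, 42 to 261 lower and 15 to 30 opposite. The largest counts came without WT replicate 3 (458 higher, 192 lower) or without BP12-2 replicate 1 (340 and 261), where a single genotype is left to pass the fold. No named gene that was called changed sign in any setting. Without a PRR5-high library this was largely fixed in advance, because a call already needs the same direction in each genotype alone. Of the 93 named genes, 30 moved by more than their residual SD without BP12-2 replicate 1, 36 of 91 without WT replicate 3, 5 with a prior count of 5, 1 of 91 without BP12-2 replicate 3, and 0 under the other scalings and filters and DESeq2. Deviations of same-numbered libraries from their genotype mean correlated at -0.310, 0.057 and -0.303, none of them clearly positive. The 0.473 for BP12-2 replicate 1 with WT replicate 3 is the Pearson r given above. It is no separate check, since PRR5 chose that pair. Deviations within a genotype also cancel out, so these correlations depend on each other. With the replicate number as a block, 2 of the 93 moved, AT3G17520 to -1.51 and HAI3 to -3.05. Of the 30 list medians, 18 moved by more than their spread without WT replicate 3, 12 without BP12-2 replicate 1, 8 each without WT replicate 1 and without WT replicate 2, and 6 with the block, under which the abscisic acid median was 0.05 in place of -0.07 and the phenylpropanoid one was -0.47. The medians of 11 lists, none above 0.094 in size as reported, turned sign with 1 library left out. Depth limits low genes such as HSP21, KIN1 and HAI3, whose fitted values rest on few counts.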
